A study of Gallus gallus with 24 samples.

Results

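The nuclear genes of oxidative phosphorylation were followed in the jejunum of 24 chickens. They were chosen by name: genes outside chromosome MT with an NDUFA, NDUFB, NDUFC, NDUFS or NDUFV name and a digit, SDHA to SDHD, UQCR names, COX names from COX4 to COX8, and ATP5 names. Of the 15618 genes in the table, 65 matched, with 31 in complex I, 4 in complex II, 8 in complex III, 9 in complex IV and 13 in complex V. The rule used names alone, and all 65 passed the filter on low values. The complex was taken from the name, so NDUFA4, which was named for complex I and was later placed in complex IV in mammals, was counted under complex I. ATP5S, a coupling factor and not a core subunit, was counted under complex V.

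The respiratory chain sits in the inner mitochondrial membrane. Complexes I, III and IV pass electrons from NADH to oxygen and pump protons, complex II feeds in electrons from succinate without pumping, and complex V, the ATP synthase, uses the proton gradient to make ATP. Complexes I, III, IV and V are built from subunits of 2 genomes, since 13 subunits are encoded on chromosome MT and the rest in the nucleus, while complex II is wholly nuclear. In the jejunum, absorptive enterocytes are rich in mitochondria, which supply ATP for the sodium pump that drives nutrient uptake.

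HAS and LAS are chicken lines selected in opposite directions on the antibodies they make against sheep red blood cells, or SRBC (HAS for more, LAS for less). HASN and LASN received no injection and HASI and LASI were given SRBC, with 6 libraries a group, each taken as 1 bird. Every sample is labelled 5 days post injection, and the labels used here give no age, sex, batch or date. RNA was extracted from bulk jejunum samples, so fewer cells of a type and less RNA per cell cannot be told apart in any value below. Nothing in the labels says how the 6 samples of a group were raised or collected, so p-values measure only the spread between these samples.

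Values are TPM, the transcript unit that is scaled for gene length and to a fixed total per library, so that levels can be compared between genes. The read depth behind them is unknown. Libraries differed along a shared axis, the span slope: expression, as log2(TPM + 1), regressed on the log2 span that each gene covers in the genome. A lower slope means relatively more RNA from compact genes. Within HASN the slope ranged from -0.28 to -0.22 in replicates 1 to 3 and from -0.02 to 0.01 in replicates 4 to 6. LASI replicate 6 stood at -0.06 against -0.24 to -0.14 in the other LASI birds. Those other LASI birds all lay below the lowest LASN bird, at -0.13. The slope averaged -0.18 after injection and -0.05 without it in the LAS line. Injected HAS birds averaged -0.16 and uninjected ones -0.12, and the injected birds lay within the uninjected range. The 8 enterocyte markers were detected in every group, with a summed level of 14027 to 26279 TPM over the 24 birds. The 7 smooth muscle markers summed to 793 to 6405 TPM in HASN, 1712 to 4112 in HASI, 1694 to 4363 in LASN and 1547 to 10522 in LASI.

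The 65 genes were among the more abundant of the tissue. The median of their mean levels was 250.2 TPM, against 15.0 TPM over the 13279 genes tested. They were also compact, with a median genomic span of 3686 bp against 13064 bp. By complex, the median level was 147 TPM for complex I, 306 for complex II, 314 for complex III, 704 for complex IV and 354 for complex V.

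Within complex I, NDUFB1 at 361 TPM and NDUFB5 at 357 TPM, accessory subunits of the membrane arm, had the highest mean levels of the 24 birds. NDUFV3, an accessory subunit of the NADH-binding part, had the lowest at 35.5 TPM. In complex II, SDHD at 451 TPM, a membrane anchor, and SDHB at 362 TPM, the iron-sulfur subunit, stood above SDHC at 250.2 TPM and the flavoprotein subunit SDHA at 193 TPM. Subunits that meet in a fixed ratio in the complex were present at unequal transcript levels.

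In complex III the highest mean levels were those of UQCRH at 691 TPM, the hinge protein, and UQCR10 at 583 TPM, a small subunit. In complex IV they were those of COX4I2 at 955 TPM and COX6C at 911 TPM, both accessory subunits, ahead of COX7B at 882 TPM and COX5B at 782 TPM. In complex V the catalytic beta subunit ATP5F1B had 704 TPM and ATP5MC1, which encodes the membrane ring subunit c, 655 TPM. ATP5S had 5.71 TPM and was the lowest of all 65.

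The name COX4I2 in the table needs care. In mammals COX4I1 is the broadly expressed form of the subunit and COX4I2 a form of lung and other tissues. RefSeq (GRCg7b) lists COX4I2 as a synonym of COX4I1 and places that gene near IRF8 and EMC8, as the table does for COX4I2 (galGal6, chromosome 11, 17610547 to 17614743). The level of 955 TPM is therefore read here as that of the gene RefSeq calls COX4I1. Of the tissue isoforms of complex IV and related genes, COX6A1 had a mean of 526.02 to 843 TPM over the 4 groups, COX7A2 had 369.6 to 457 and COX7A2L, which joins complexes III and IV into a supercomplex, 134 to 149. The second ring subunit gene in the table, ATP5MC3, had 249 to 267 TPM, below ATP5MC1 at 531 to 777 TPM.

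**Figure D1:**
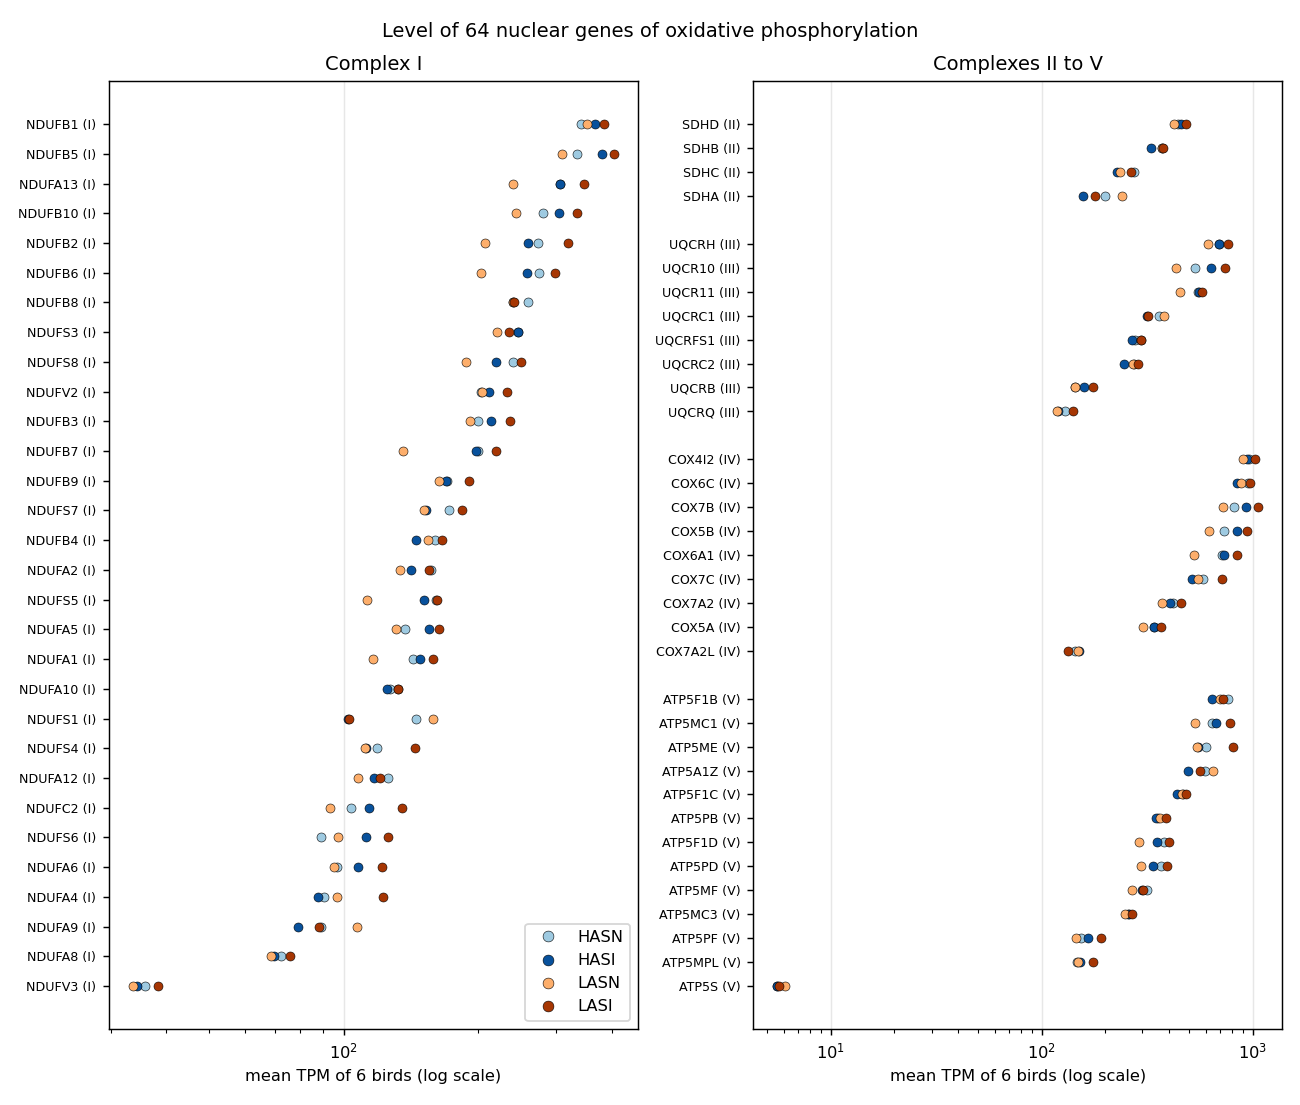
Mean level of 64 of the 65 genes in the 4 groups (horizontal axis, TPM on a log scale; 1 row per gene, complex I on the left and complexes II to V on the right; each point is the mean of 6 birds). The genes spread from ATP5S at 5.71 TPM to COX4I2 at 955 TPM, and the 4 groups of a gene lie close together beside that spread.

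Each gene's highest bird stood 1.55 times (NDUFA10) to 5.54 times (ATP5ME) above its lowest, with a median of 2.42 times. Most pairs of the genes varied together. With the mean of each group removed, the 2080 pairs of these genes had a median Pearson r of 0.76 over the 24 birds, against 0.28 for all pairs of tested genes, and 83.2% of the pairs were positive. The median within complexes was 0.82 for complex I, 0.24 for complex II, 0.67 for complex III, 0.83 for complex IV and 0.68 for complex V. These correlations share libraries and scaling, and are given as a description.

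A few genes did not vary with the rest. The median r with the other 64 genes was -0.70 for SDHA, -0.64 for NDUFS1, -0.39 for NDUFA9, -0.37 for COX7A2L and -0.19 for ATP5S. NDUFS1 is the large iron-sulfur subunit of complex I, and NDUFA9 lies at the junction of its arms. SDHA and NDUFS1, which belong to different complexes and lie on chromosomes 2 and 7, followed each other with an r of 0.98. Both also went with the span slope. After rescaling over genes outside chromosome MT, r with the slope was 0.92 for SDHA and 0.88 for NDUFS1, against a median of -0.90 over the 65. The part of the slope in their r of 0.98 was not tested. At the other end ATP5MF, a small membrane subunit of complex V, had a median r of 0.92 and UQCRH and COX7B had 0.91.

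The question put to the 2 genomes was whether the summed nuclear transcripts of a bird went with its summed chromosome MT transcripts. The 65 genes summed to 13325, 21329 and 27279 TPM in HASN (lowest, median and highest bird), to 17569, 20067 and 23001 TPM in HASI, to 15153, 18352 and 22744 TPM in LASN and to 16641, 22370 and 28260 TPM in LASI. They made up 1.33% to 2.83% of all TPM. The 4 groups overlapped throughout, and HASN held birds at both ends: replicates 1 to 3 stood at 24873 to 27279 TPM and replicates 4 to 6 at 13325 to 17785 TPM.

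The 13 chromosome MT genes took far more, at 110042 to 234055 TPM in HASN, 213922 to 379961 TPM in HASI, 95420 to 182019 TPM in LASN and 157536 to 266804 TPM in LASI. Because TPM is a fixed total, more chromosome MT TPM leaves less for every nuclear gene. The ratio of the sums, which no scaling changes, was 7.72, 8.45 and 11.02 in HASN (lowest, median and highest) and 10.5, 12.5 and 19.8 in HASI. It was 6.30, 8.15 and 9.55 in LASN and 7.17, 10.2 and 13.0 in LASI. The ratio was thus higher in the injected groups by its median, with a narrow overlap in the HAS line, where HASN replicate 4 at 11.02 reached into the HASI range, and a broader one in the LAS line.

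**Figure D2:**
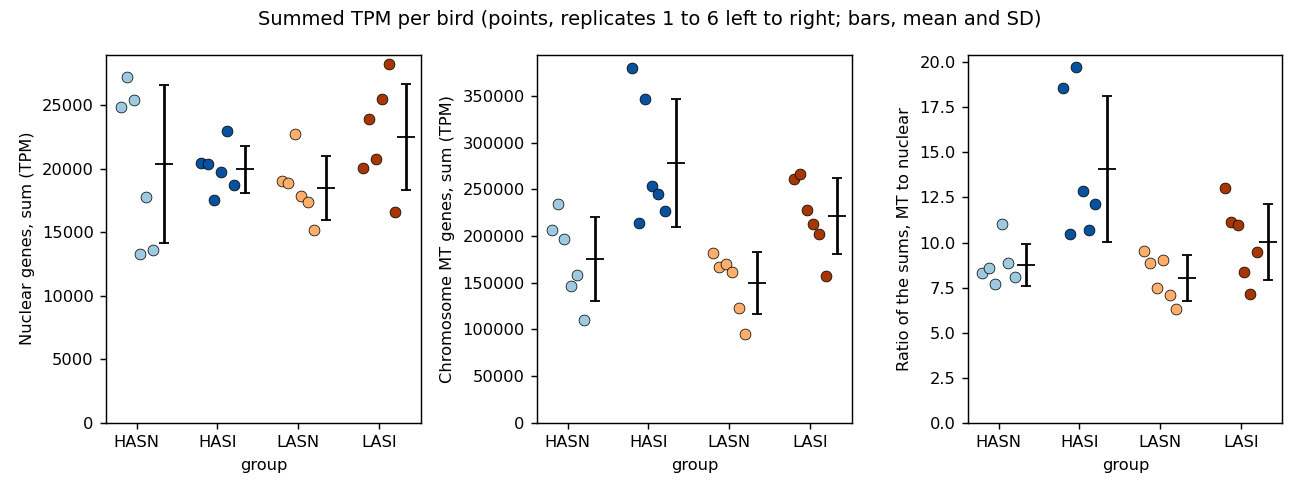
Summed level of the 65 nuclear genes (left, TPM), summed level of the 13 chromosome MT genes (middle, TPM) and their ratio (right) in each bird, by group. Points are birds, with replicates 1 to 6 from left to right, and bars show the mean and SD of 6. The nuclear sums overlap in all groups, while the ratio averages 14.1 in HASI against 8.76 in HASN and 10.01 in LASI against 8.04 in LASN.

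Over the 24 birds the nuclear sum and the chromosome MT sum were related by a Pearson r of 0.37 and a Spearman rho of 0.55. After the nuclear values were rescaled to the same total over genes outside chromosome MT, r was 0.67 and rho 0.73. Without HASI replicates 1 and 3, the birds farthest from the median chromosome MT sum, r was 0.64 as deposited and 0.76 rescaled. With any single bird left out, r as deposited was 0.29 to 0.49. No p-value is given, since the sum is a score over genes chosen with earlier results known.

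As deposited, the relation was uneven between groups. Among the HASN birds r was 0.95, with replicates 1 to 3, the birds of low slope, at the top of both sums, and among LASN birds it was 0.75. It was 0.23 for LASI and -0.28 for HASI. After rescaling it was above 0 in all 4 groups, at 0.96 in HASN, 0.83 in LASN, 0.46 in LASI and 0.64 in HASI. By complex, r as deposited was 0.42 for complex I, 0.43 for complex III, 0.44 for complex IV and 0.19 for complex V, the complexes with subunits of both genomes. It was -0.18 for complex II. After rescaling it was 0.70 for complexes I and III, 0.68 for complex IV and 0.53 for complexes II and V. The span slope moved with both sums: its r was -0.97 with the rescaled nuclear sum and -0.69 with the chromosome MT sum. Its part in the relation was not tested.

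**Figure D3:**
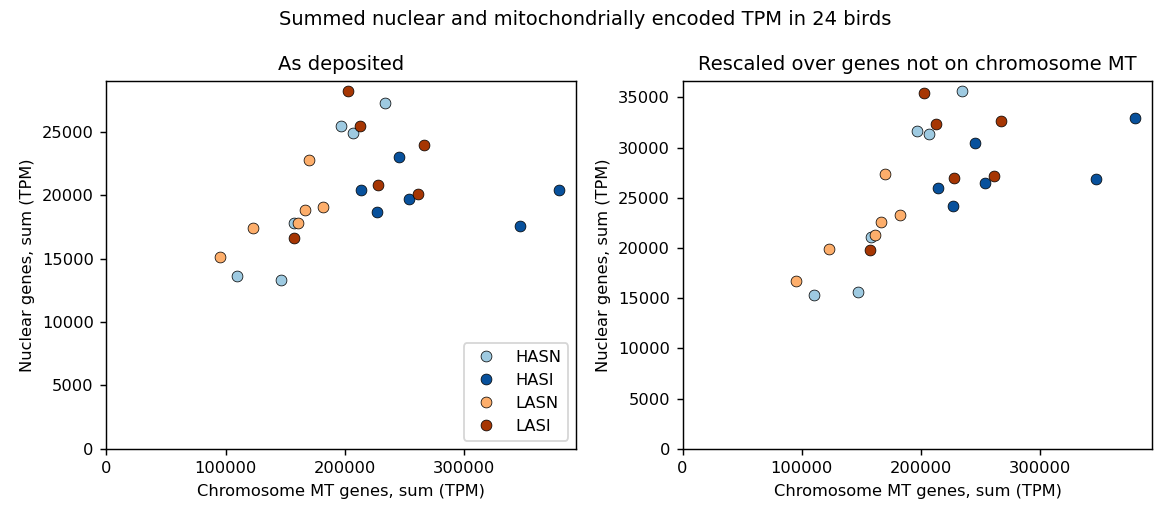
Summed level of the 65 nuclear genes (vertical axis, TPM) against that of the 13 chromosome MT genes (horizontal axis, TPM) in 24 birds, as deposited on the left (r = 0.37) and with the nuclear values rescaled over genes outside chromosome MT on the right (r = 0.67). Each point is a bird, colored by group, and the 2 HASI birds farthest to the right fall below the run of the other birds as deposited.

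Gene by gene, 60 of the 65 had a positive r between the rescaled log2 level and the log2 chromosome MT sum, with a median of 0.73. Over the 13266 tested nuclear genes 29.3% were positive and the median was -0.42. NDUFB5 at 0.87, NDUFA5 at 0.84, a matrix-arm subunit, and COX7B at 0.83 had the highest r. SDHA at -0.76, NDUFS1 at -0.70 and NDUFA9 at -0.49 had the lowest. Against the span slope the median r of the 65 genes was -0.90, and that of all tested nuclear genes 0.56.

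Uninjected birds of the lines were compared to ask how these genes differed between the lines without injection. In HASN vs LASN none of the 65 was called by limma (adjusted p below 0.05, Benjamini-Hochberg over 13279 genes), where 1.17% of all tested genes were (0.331% higher, 0.843% lower), and 0 had an unadjusted p below 0.05. Their median log2 fold change was 0.06 as deposited, against -0.19 over all tested genes. With the slope as a covariate it was -0.13 against -0.0054. Of the 65, 44 were above 0 as deposited and 8 with the slope, where 26.0% and 48.7% of all tested genes were. After median-ratio rescaling their median was 0.30, with 63 above 0 where 50.8% of all tested genes were. The smallest adjusted p was that of NDUFS5, an accessory subunit of complex I, whose TPM was 95.2, 150.4 and 238 in HASN and 94.1, 111 and 139 in LASN (log2 fold change 0.43, SE 0.23, adjusted p = 0.448). NDUFA9 followed at -0.28. No gene of the 65 had groups of 6 that did not overlap, where 1.21% of all tested genes did.

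In injected birds, HASI vs LASI, again 0 of 65 were called, against 0.542% of all tested genes (0.158% higher, 0.384% lower), and 1 had an unadjusted p below 0.05. That was NDUFA4, with 68.2, 92.8 and 100.4 TPM in HASI and 76.1, 124 and 171 TPM in LASI (log2 fold change -0.44, SE 0.21, adjusted p = 0.637). The median log2 fold change was -0.15 against -0.06 over all genes. Of the 65, 61 were below 0 as deposited but 44 after rescaling without chromosome MT. Over all tested genes, 38.4% and 55.9% were above 0 in these fits. UQCRC2, a core protein of complex III, at -0.24 and SDHB at -0.21 followed. No groups were free of overlap, where 1.36% of tested genes had such groups.

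Within the HAS line the injection was followed by no called member. HASI vs HASN called 0 of 65 against 2.0% of all tested genes (0.241% higher, 1.75% lower), with 1 unadjusted p below 0.05. NDUFS6, a zinc-binding subunit of complex I, differed by 0.43 on the log2 scale (SE 0.23, adjusted p = 0.342) and ATP5F1B by -0.25 (SE 0.14, adjusted p = 0.355), each short of the call. The median was 0.04 against -0.26 over all genes as deposited, and -0.10 against -0.15 with the slope. The groups of every gene overlapped, where 1.93% of tested genes had groups that did not.

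Within the LAS line COX7B rose after injection and was the only one of the 65 called in LASI vs LASN, where 31.1% of all tested genes were called, 2.18% as higher and 28.9% as lower. COX7B, a small subunit of complex IV, had 528, 740 and 836 TPM in LASN and 736, 1097 and 1346 TPM in LASI. All 6 LASI birds stood above the LASN mean, and the groups overlapped between 736 and 836 TPM. The log2 fold change was 0.53 (SE 0.20, adjusted p = 0.0465). The call was kept in 10 of 24 fits with a bird left out, and it was lost when the slope entered as a covariate, where 5 of the 65 were called lower and 0 higher beside 4.88% and 0.949% of all genes. After rescaling without chromosome MT 3 were called higher (COX7B, NDUFB5 and ATP5PF), where 3.87% of all genes were higher and 23.4% lower. Over all alternatives its adjusted p ranged from 0.0164 to 0.807.

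UQCR10 came next, with 285, 421 and 567.6 TPM in LASN and 395, 722 and 1108 TPM in LASI (log2 fold change 0.72, SE 0.29, adjusted p = 0.058). NDUFS1 had 113, 163 and 188 TPM in LASN and 59.2, 97.0 and 171 TPM in LASI (log2 fold change -0.67, SE 0.27, adjusted p = 0.0602). Both groups of birds overlapped in each gene, and neither was called. In all, 12 of the 65 had an unadjusted p below 0.05, 10 with higher and 2 with lower levels in LASI. Of all tested genes 31.1% passed the stricter adjusted threshold, so at least that share had an unadjusted p below 0.05. The exact share at the unadjusted threshold is not given here, nor for the other contrasts. The median log2 fold change of the 65 was 0.25 against -0.33 over all tested genes. Of the 65, 56 were above 0, where 23.7% of all tested genes were. But with the slope as a covariate the median was -0.13 and 11 were above 0, beside -0.061 and 40.4% over all tested genes. The 7 smooth muscle markers had a median of 0.40 in the same contrast and 0.11 in HASI vs HASN, with 0 called in each, and their part in the result was not tested. No gene had groups without overlap, where 4.84% of tested genes did.

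The count depended on single birds. Without LASI replicate 6, the LASI bird with the lowest nuclear sum, 14 were called higher and 2 lower. The count was 4 without HASN replicate 4, 3 without HASN replicate 2 or LASN replicate 3, and 2 without HASN replicate 6. It was 1, a gene called lower, without LASN replicate 1. It was 0 in the fits without HASI replicates 2, 3, 4 or 5, HASN replicate 5, LASI replicates 2, 3, 4 or 5, or LASN replicates 2, 4, 5 or 6. Calls over all tested genes moved as well. They were 289 higher and 3844 lower of 13279 with every bird, and 251 higher and 3619 lower of 13263 without HASI replicate 2. For the other left-out birds, LASI replicate 6 included, the counts over all tested genes are not given here. Whether the 65 moved more than all genes in those fits can therefore not be read from their counts. Fitted on the LAS birds alone, with no HASN library in the fit, 8 of the 65 were called higher and 2 lower. In that fit 348 of all 12855 tested genes were called higher and 4899 lower. The injection effect did not pass a test of difference between the lines for any of the 65. The interaction called 0 of 65 and 0% of all tested genes, with 0 unadjusted p-values below 0.05 among the 65. NDUFS8, an iron-sulfur subunit, at -0.44 (SE 0.27) and UQCRC2 at -0.26 (SE 0.16), each as HAS effect minus LAS effect on the log2 scale, were among those of smallest p, with an adjusted p of 0.75 each.

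Averaged over both lines, the injection effect called 6 of the 65, 4 higher and 2 lower, where 41.1% of all tested genes were called, 2.33% as higher and 38.8% as lower. The genes that rose were COX7B, COX5B, UQCR10 and NDUFB5, small accessory subunits of complexes IV, III and I. Those that fell were NDUFS1 of complex I and SDHA of complex II. By the median over the 65 the log2 fold change was 0.15 against -0.29 for all tested genes. Of the 65, 48 were above 0 as deposited and 14 with the slope as a covariate, where 19.0% and 28.9% of all tested genes were. This average uses the same birds as the comparisons within each line.

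COX7B had 470, 842 and 1158 TPM in HASN and 765, 920.5 and 1069 TPM in HASI, beside the LAS values above. Of the 12 injected birds 11 stood above the uninjected mean of their line (log2 fold change 0.40, SE 0.14, adjusted p = 0.0293). COX5B, a peripheral subunit of complex IV, had 347, 751 and 1091 TPM in HASN, 668, 778 and 1118 TPM in HASI, 469.8, 611 and 796 TPM in LASN and 613, 931 and 1206 TPM in LASI. It was above the line's uninjected mean in 8 of 12 birds (0.46, SE 0.18, adjusted p = 0.0476). An unnamed gene model on the other strand covers the whole of COX5B, and the table does not say whether strand was used in counting.

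UQCR10 had 272, 509.5 and 873 TPM in HASN and 470, 642 and 847 TPM in HASI, and was above the uninjected mean in 9 of 12 birds (0.55, SE 0.20, adjusted p = 0.0352). NDUFB5 had 214, 359 and 424.5 TPM in HASN and 333, 387 and 424.2 TPM in HASI. In the LAS line it had 232, 306 and 398 TPM uninjected and 309, 424 and 458 TPM injected, and 10 of 12 injected birds were above the uninjected mean (0.32, SE 0.11, adjusted p = 0.0332). With a bird left out COX7B was called in 18 of 24 fits, NDUFB5 in 14, UQCR10 in 13 and COX5B in 7. In each of these 4 genes the lowest HASN birds stood below all HASI birds, and in COX7B, UQCR10 and NDUFB5 the highest HASN bird reached or passed the highest HASI bird.

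NDUFS1 had 79.2, 149.6 and 200.1 TPM in HASN and 59.2, 112 and 142 TPM in HASI, and 11 of 12 injected birds were below the uninjected mean of their line. Its log2 fold change was -0.57 (SE 0.19, adjusted p = 0.0233), and it was called in 24 of 24 fits with a bird left out. After rescaling without chromosome MT it was -0.41 (adjusted p = 0.0629) and with the slope -0.17 (adjusted p = 0.349). SDHA had 126, 196 and 268 TPM in HASN, 98.1, 166 and 207 TPM in HASI, 197, 244 and 279 TPM in LASN and 128, 171 and 261 TPM in LASI. It was below the uninjected mean in 10 of 12 birds (-0.38, SE 0.15, adjusted p = 0.0393), and was called in 10 of 24 fits with a bird left out. The HASN values of both genes formed a low and a high trio with nothing between, the low trio being replicates 1 to 3.

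**Figure D4:**
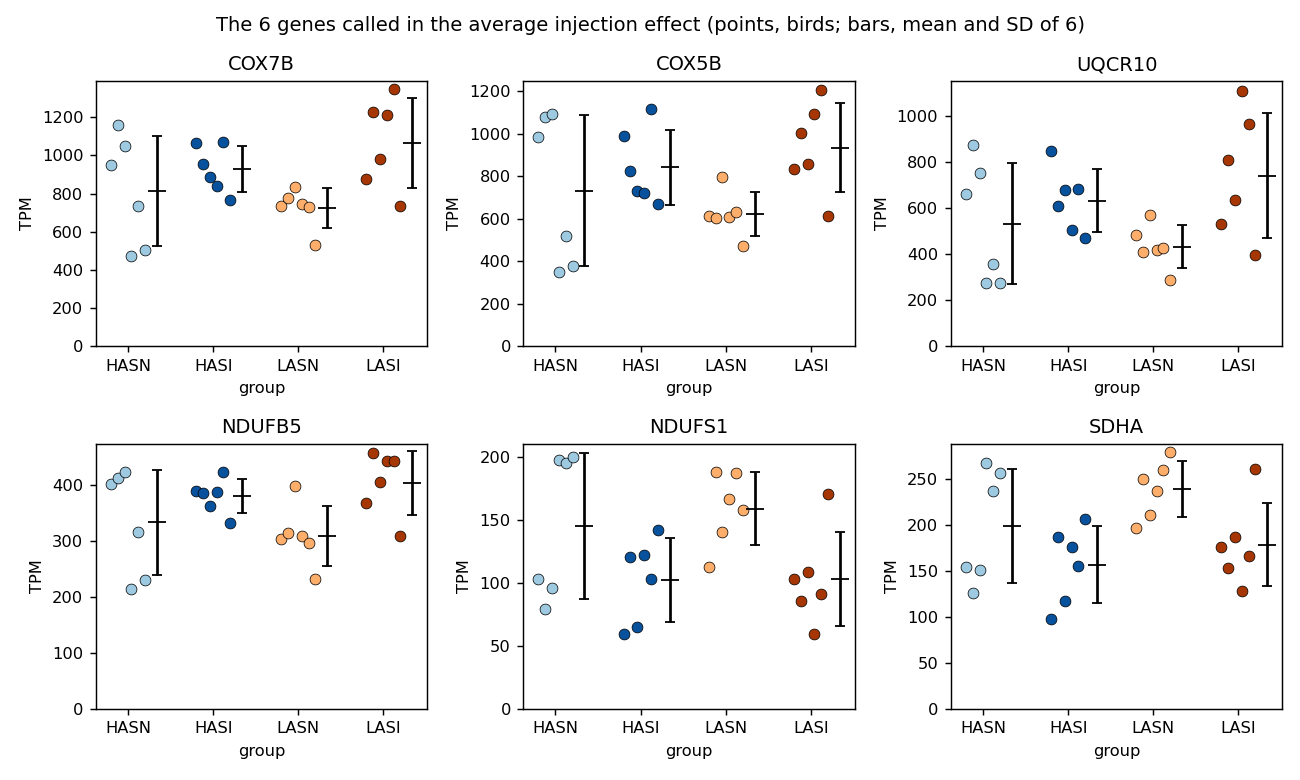
Levels (TPM, vertical axis from 0) of the 6 genes called in the average injection effect, by group. Points are birds and bars the mean and SD of 6. COX7B, COX5B, UQCR10 and NDUFB5 have higher means in injected birds and NDUFS1 and SDHA lower means, with overlap in every panel and a wide spread in HASN.

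The direction of the genes went with their genomic span. Over the 65, the average log2 fold change and the log2 span had a Pearson r of -0.62. All 20 genes under 2500 bp had a log2 fold change above 0, with a median of 0.27. The 23 genes of 2500 to 5000 bp had a median of 0.16, the 14 of 5000 to 10000 bp one of -0.01, and the 8 over 10000 bp one of -0.04 with 3 above 0. With the span slope of each library as a covariate the r was 0.11, and none of the 6 calls was kept. That average joins the lines, so the r of each line is given too, and the difference between them was not tested. As deposited the r was -0.51 for HASI vs HASN and -0.63 for LASI vs LASN. With the slope it was -0.15 and 0.36, so that the sign turned in the LAS line.

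**Figure D5:**
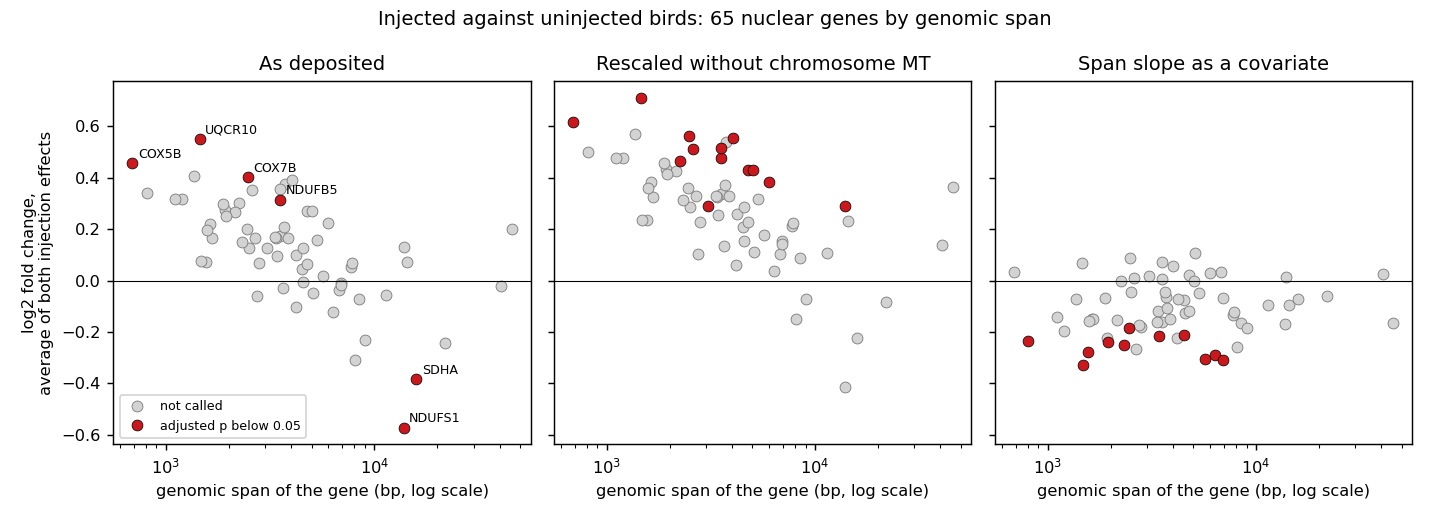
Average injection effect (log2 fold change, vertical axis) of the 65 genes against genomic span (horizontal axis, bp on a log scale), as deposited, rescaled without chromosome MT, and after adding the slope to the model. Each point is a gene, red where the adjusted p was below 0.05. The points fall from left to right in the first and middle panels (r = -0.62 in each) and lie mostly below 0 without that trend in the right panel, where 11 genes are called lower.

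The scale decided how many were called. Rescaled over genes outside chromosome MT, the average effect called 13 higher and 0 lower of the 65, where 5.60% of all genes were called higher and 23.5% lower, and the median was 0.31. ATP5PF, a peripheral stalk subunit of complex V, and UQCRB, a small subunit of complex III, were among the 13, and all 4 genes called higher as deposited remained. Median-ratio rescaling, which moved the median of all genes from -0.29 to 0.01, called 16 of the 65 higher and 0 lower. In that fit 1795 of all 13230 tested genes were called higher and 2604 lower. With the slope as a covariate 11 were called lower and 0 higher, where 15.2% of all genes were called lower and 2.06% higher. Among the 11 were SDHC, COX6C, NDUFA2, ATP5MF, NDUFS7, ATP5F1D, UQCRQ, NDUFB2, UQCR11 and NDUFB4, and the median was -0.12 against -0.10 over all genes. The smooth muscle markers, given above, had a median of 0.20 with 0 of 7 called, and the enterocyte markers one of -0.04 with 0 higher and 1 lower of 8. Their part in the result was not tested.

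Genes that regulate, read or assemble the machinery were taken as lists. A count out of 12 injected birds gives those above or below the uninjected mean of their line. Such counts describe genes named with results known and are not a test. Of 7 regulators of nuclear mitochondrial genes, 0 rose and 2 fell in the average effect, with a median of -0.28. Over all tested genes 2.33% rose and 38.8% fell by the same call, with a median of -0.29. PPARGC1A, the coactivator PGC-1 alpha, had 0.0708, 2.90 and 6.99 TPM in HASN and 0.215, 0.510 and 0.852 TPM in HASI. It had 1.09, 3.44 and 6.68 TPM in LASN and 0.240, 0.562 and 1.49 TPM in LASI. All 12 injected birds stood below the uninjected mean of their line (log2 fold change -1.19 with a standard error of 0.29, adjusted p = 0.00665), and with the slope as a covariate the value was -0.51 (adjusted p = 0.00785). The call was kept in all 32 alternatives. NRF1, a transcription factor of these genes, had 2.84, 6.47 and 15.4 TPM in HASN and 2.55, 4.50 and 5.69 TPM in HASI, with overlap. It had 6.44, 9.68 and 9.86 TPM in LASN and 2.61, 3.59 and 5.83 TPM in LASI, without overlap, as for 4.84% of all tested genes. The average effect was -0.81 (SE 0.21, adjusted p = 0.00893), with 12 of 12 injected birds below the uninjected mean of their line. The call of NRF1 was kept in 31 of 32 alternatives. With the slope it was at -0.35 (adjusted p = 0.0343).

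The 14 genes that copy and express the mitochondrial genome had 1 higher and 5 lower, with a median of -0.28, beside 38.8% lower and a median of -0.29 over all tested genes. After rescaling without chromosome MT 1 was higher and 1 lower, beside 5.60% and 23.5% of all genes. After median-ratio rescaling 4 were higher and 1 lower, beside 1795 and 2604 of all 13230 genes. With the slope 0 were higher and 1 lower, beside 2.06% and 15.2% of all genes. POLRMT, the mitochondrial RNA polymerase, fell by 0.63 (SE 0.18, adjusted p = 0.0135), with 11 of 12 injected birds below the uninjected mean. With the slope it was -0.24 and not called (adjusted p = 0.105). POLRMT stayed called after rescaling without chromosome MT (-0.49, adjusted p = 0.0299) and after median-ratio rescaling (-0.30, adjusted p = 0.0276). Its call was kept in 30 of 32 alternatives. TWNK, the replicative helicase, fell by 0.34 (SE 0.09, adjusted p = 0.0101), also in 11 of 12. It was not called after rescaling without chromosome MT (-0.18, adjusted p = 0.139), and its value was 0.0049 after median-ratio rescaling. With the slope TWNK was at -0.45 and called (adjusted p = 0.000489), and its call was kept in 30 of 32 alternatives. SLIRP, a partner of LRPPRC in keeping mitochondrial messages stable, rose by 0.44 (SE 0.18, adjusted p = 0.0486) in 9 of 12, but its call was kept in 11 of 32 alternatives and its value was 0.026 with the slope (adjusted p = 0.843). TFAM, which packages mitochondrial DNA, had -0.03 and was not called.

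Of 70 mitochondrial ribosomal protein genes, 4 were higher and 1 lower as deposited, with a median of 0.07, beside 2.33% higher and 38.8% lower over all tested genes. The count depended on the scale. After rescaling without chromosome MT 16 were higher and 0 lower, beside 5.60% and 23.5% of all genes. After median-ratio rescaling 30 were higher and 0 lower (median 0.42), beside 1795 and 2604 of all 13230 genes. With the slope 2 were higher and 7 lower, beside 2.06% and 15.2% of all genes. MRPS5, of the small subunit, had 38.6, 43.6 and 49.0 TPM in HASN and 45.6, 51.5 and 66.0 TPM in HASI. In LASN it had 38.3, 43.5 and 46.9 TPM and in LASI 47.8, 54.8 and 79.5 TPM. The LAS groups of MRPS5, a gene picked by its p-value, did not overlap, as was so for 4.84% of all tested genes. It was above the uninjected mean in 12 of 12 birds (0.35, SE 0.09, adjusted p = 0.00676), and its call was kept in all 32 alternatives. MRPL58, a peptide release factor built into the large subunit, rose by 0.46 (adjusted p = 0.014) in 10 of 12, and was at 0.16 with the slope (adjusted p = 0.0997). MRPL3 fell by 0.42 (adjusted p = 0.0369) in 9 of 12, but its call was kept in 17 of 32 alternatives. It was lost after rescaling without chromosome MT (-0.27, adjusted p = 0.125), after median-ratio rescaling (-0.071, adjusted p = 0.552) and with the slope (-0.12, adjusted p = 0.512).

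Of 35 assembly factors, 3 were higher and 4 lower as deposited, with a median of 0.0043. After rescaling without chromosome MT 6 were higher and 1 lower (median 0.16). After median-ratio rescaling 14 were higher and 0 lower (median 0.33), and with the slope 0 were higher and 3 lower. As deposited, the complex I factors NDUFAF6 and NDUFAF4 fell by 0.41 (adjusted p = 0.00914) and 0.34 (adjusted p = 0.0254), each in 12 of 12 injected birds. After median-ratio rescaling they were at -0.067 (adjusted p = 0.607) and -0.0096 (adjusted p = 0.928). NDUFAF4 was also not called after rescaling without chromosome MT (adjusted p = 0.147) or with the slope (adjusted p = 0.275). The complex IV factor COX20 rose by 0.24 (adjusted p = 0.0223) in 12 of 12, and was at 0.20 with the slope (adjusted p = 0.0825). Of 12 genes of the tricarboxylic acid cycle, which feeds the chain, 0 rose and 4 fell (median -0.28), among them OGDH by 0.30 (adjusted p = 0.00942) in 11 of 12. After rescaling without chromosome MT 0 of the 12 were called, and after median-ratio rescaling OGDH was at 0.051. With the slope OGDH was at -0.24 and called (adjusted p = 0.0432), and its call was kept in 29 of 32 alternatives. Of 15 protein import genes, 1 was higher and 2 lower: TOMM7 rose by 0.49 (adjusted p = 0.023) in 9 of 12, and TIMM17A and TOMM70 fell by 0.28 (adjusted p = 0.0163) in 11 of 12 and by 1.37 (adjusted p = 0.0213) in 12 of 12. TOMM70 had 6.22, 46.1 and 95.3 TPM in HASN and 6.19, 21.5 and 40.3 TPM in HASI, with overlap. It was called in LASI vs LASN (-1.95, adjusted p = 0.0273) and not in HASI vs HASN (-0.79, adjusted p = 0.454). After rescaling without chromosome MT 3 of the 15 were higher and 1 lower. After median-ratio rescaling 6 were higher and 1 lower, and TIMM17A was at 0.070. With the slope 0 were higher and 2 lower. There TOMM70 was at -0.34 (adjusted p = 0.290) and TOMM7 at 0.12 (adjusted p = 0.313), and neither was called. Of cytochrome c (CYCS) and NDUFAB1 neither was called. These lists are described by their counts alone, beside 2.33% higher, 38.8% lower and a median of -0.29 over all tested genes as deposited. The shares over all genes were 5.60% higher and 23.5% lower after rescaling without chromosome MT. With the slope they were 2.06% and 15.2%. After median-ratio rescaling 1795 of all 13230 genes were higher and 2604 lower.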

How the data were processed

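The authors deposited 1 table of TPM values for 15618 genes in 24 libraries, 1 column per bird. The unit was read from the values, whose columns sum to 999995 to 1000000. Per the submitters' processing notes the genome build was galGal6. The aligner, counter, strand setting and annotation release are not given in the sources used here. A TPM table keeps no counts, so depth and counting error are unknown. RNA was isolated with the RNeasy mini kit, per the labels' protocols. No column lacked a sample.

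Tests covered the 13279 genes that reached 0.5 TPM in 6 or more libraries. Values were used as log2(TPM + 1), so a fold change of a low gene is understated. All 24 libraries entered 1 limma 3.58.1 fit (R 4.3.3) with a mean per group, trended and robust empirical Bayes moderation, leaving 20 residual degrees of freedom. It gave 4 contrasts between groups, an interaction and the mean injection effect of the lines, each two-sided, with Benjamini-Hochberg adjustment over all genes tested in a contrast and a call at an adjusted p below 0.05. The procedure was tested on simulated data.

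The 65 genes, the pathway and marker lists and the tests were chosen with earlier results of these data known. The genes named are the 2 of highest mean per complex, up to 3 per contrast and direction by adjusted p (the 3 of smallest p where fewer than 3 were called), isoforms, and the 3 of highest and lowest r with the chromosome MT sum. From each pathway list the 2 of smallest adjusted p per direction were considered. Others named were chosen after their values were seen. Some genes that the rule selects are not reported here by name, though all counts and sums include them. Of the 65 names, 51 matched RefSeq (GRCg7b) by symbol, 9 by synonym and 5 not at all. Of the 65, 13 overlap another gene model, among them ATP5F1B, ATP5PB, NDUFS3 and NDUFB10, the last by 135 bp with RPS2 on the other strand, and their values may hold reads of the neighbor.

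The alternatives were rescaling over genes outside chromosome MT, median-ratio rescaling, a pseudocount of 0.1, no filter, a filter at 1 TPM, the span slope as a covariate, the replicate number as a block, the groups compared alone, and each library left out. Rescaling together with the slope was added after seeing the data. The slope comes from the same values that it adjusts, these genes included. It also differed between injected and uninjected birds, most in the LAS line. Fits with the slope therefore cannot separate it from the injection in LASI vs LASN or in the average effect.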

Additional observations from a re-analysis of the deposited data

Results flagged for a closer look

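In a group of 6 birds, a single bird was set apart where its gap to the next exceeded Dixon's 95% limit. Over 136 groups examined 6 were set apart, or 4.41%, where chance gives about 1 in 20. In LASI replicate 5, ATP5F1B at 841 TPM and UQCRC2 at 328 TPM were the highest of their group, with the next bird at 730.5 and 287 TPM. In LASN replicate 6, COX7B was lowest at 528 TPM with the next at 729 TPM. In LASN replicate 1, NDUFA4 was highest at 116 TPM with the next at 95.4, and NDUFA9 lowest at 83.5 TPM with the next at 109. The ratio of chromosome MT to nuclear TPM was highest in HASN replicate 4 at 11.02, with the next bird at 8.87.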

How the results depend on the processing

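A pseudocount of 0.1 and a filter at 1 TPM changed no count of calls among the 65. Over all genes the counts did change. The average effect called 5461 of 13279 in the main fit, 5163 of 13279 with the pseudocount and 5291 of 12546 with the filter. Counts of called genes moved as follows. In HASN vs LASN, 2 were called lower with the span slope as a covariate, and 2 with the slope and rescaling together, NDUFA6 and NDUFA4 in both. Over all genes, 164 of 13279 and 179 of 13463 were called lower in these fits. In HASI vs LASI, 1 (NDUFA4) was called lower with the slope, where 224 of all 13279 genes were. In HASI vs HASN, 2 were lower with the slope (SDHC among them), where 1368 of all 13279 genes were. With slope and rescaling 2 were higher (NDUFB5 and COX5B), where 370 of all 13463 genes were. In LASI vs LASN, the count of 1 became 3 after rescaling without chromosome MT, 9 after median-ratio rescaling, 0 without a filter, 5 (all lower) with the slope, 2 (lower) with slope and rescaling, and 10 with only these groups fitted (8 higher and 2 lower). Over all genes, 1598 of 13230 were called higher and 2554 lower after median-ratio rescaling. With slope and rescaling 190 of 13463 were higher and 583 lower, and with only these groups 348 of 12855 were higher and 4899 lower. In the average effect, the count of 6 became 13 and 16 after the rescalings, 11 (all lower) with the slope, 1 (SDHC, lower) with both, and 5 without a filter (3 higher and 2 lower). Over all genes, 1795 of 13230 were called higher after median-ratio rescaling. With slope and rescaling 1199 of 13463 were lower, and without a filter 307 of 15618 were higher and 5059 lower.

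With a bird left out the count was 0 to 16 in LASI vs LASN and 1 to 15 in the average effect, and 0 throughout in the other contrasts. In the average effect it was 15 without LASI replicate 6, 13 without HASN replicate 2 or replicate 3, and 1 without HASI replicate 1, HASN replicates 4 or 6, LASI replicates 2 or 5, or LASN replicate 6. It was 2 or 3 without HASI replicates 3 or 5, HASN replicate 5, LASI replicate 4 or LASN replicate 5. Over all genes the average effect called 310 higher and 5151 lower of 13279 with every bird, and 230 higher and 3741 lower of 13273 without HASI replicate 1. For the other left-out birds the counts over all genes are not given here, so the counts of 15 and 13 have no share beside them. Among the 65, a lower call was kept in 24 of 24 fits with a bird left out and a higher one in 18.

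The median log2 fold change after median-ratio rescaling was 0.30 for HASN vs LASN, 0.32 for HASI vs HASN, 0.68 for LASI vs LASN and 0.51 for the average. With the slope it turned to -0.13 for LASI vs LASN and -0.12 for the average, and with slope and rescaling to -0.080 for LASI vs LASN. With a bird left out it was -0.04 to 0.16 for HASN vs LASN, -0.21 to -0.08 for HASI vs LASI, -0.08 to 0.11 for HASI vs HASN, 0.18 to 0.33 for LASI vs LASN and 0.09 to 0.19 for the average. The correlation of the sums moved to 0.67 after rescaling, 0.64 without HASI replicates 1 and 3, 0.95 within HASN, -0.28 within HASI and 0.75 within LASN, and was 0.29 to 0.49 with a bird left out. Single genes changed sign as follows: ATP5F1B in HASI vs HASN at 0.029 after median-ratio rescaling, UQCR10 in LASI vs LASN at -0.0023 with the slope, SDHA in the average effect at 0.033 with slope and rescaling, and OGDH at 0.051, TWNK at 0.0049 and TIMM17A at 0.070 in the average effect after median-ratio rescaling. Apart from what the settings do by construction, the cause was not tested.

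Replicate numbers were not treated as pairs: over 24 pairs of the same number the correlation of deviations was -0.51 to 0.68, over 0.1 in 12, and 7 of 24 were best with their own number. With the replicate block 12 were called in LASI vs LASN (10 higher and 2 lower) and 11 in the average effect (9 higher and 2 lower). Over all 13279 tested genes the block fit called 387 higher and 4919 lower in LASI vs LASN, and 372 higher and 6026 lower in the average effect. Depth is unknown, so no limit from counting can be given.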

Other observations

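The chromosome Z members showed a further division among birds. Birds have Z and W sex chromosomes, females carry 1 copy of Z and a W, and males 2 copies of Z. The summed chromosome W TPM was 7.68 to 27.4 in 11 birds and 1014 to 1330 in the other 13, and no bird lay between. These sets come from the data and not from the labels. They held 3 and 3 birds in HASN, LASN and LASI, and 2 and 4 birds in HASI.

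Of the 65 genes, 4 lie on chromosome Z: ATP5A1Z, ATP5ME, COX7C and NDUFS4. ATP5A1Z, the alpha subunit of complex V, was at 560 to 869 TPM in the 11 birds of low W and at 222 to 525 TPM in the 13 of high W, without overlap. How many genes outside Z were free of overlap in TPM was not counted. The other Z genes overlapped in TPM. In low-W and high-W birds COX7C had 404 to 1179 and 249 to 567 TPM, and ATP5ME 381 to 1322 and 239 to 623 TPM. NDUFS4 had 84.4 to 225 and 52.2 to 123 TPM. As a percentage of the summed 61 genes outside Z, COX7C of complex IV was 3.46% to 4.75% in low-W birds and 1.96% to 2.55% in high-W birds. ATP5ME, a small membrane subunit of complex V, was 3.26% to 5.79% and 1.83% to 3.01%, and NDUFS4, a complex I subunit, 0.722% to 0.910% and 0.412% to 0.570%. None of these 3 overlapped between the sets on this scale, and ATP5A1Z did, at 2.49% to 6.63% and 1.16% to 3.39%. Of the 61 genes outside Z, 0 were free of overlap on the same scale. RefSeq (GRCg7b) calls the Z gene ATP5F1AZ, and whether reads of a W copy were counted in it was not analysed here.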
